A study of Mus musculus with 28 samples.

Results

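The data described here are the levels of 9 genes of death receptor signalling and necroptosis in murine bone marrow-derived macrophages (BMDMs) incubated with von Willebrand factor (VWF), the large plasma glycoprotein that tethers platelets at sites of vessel injury, or with bacterial lipopolysaccharide (LPS). The genes were taken by symbol from the read count table of the whole transcriptome, and all 9 (Ripk1, Ripk3, Mlkl, Zbp1, Casp8, Cflar, Fas, Birc2 and Birc3) were found among its 54532 genes. The 28 cultures fell into 6 groups. PBS control cells, cells given plasma-derived VWF at 10 µg/ml and cells given LPS at 100 ng/ml were each collected after 3.5 h and after 16 h, with 5, 5 and 4 cultures respectively at each time. BMDMs of all groups had been grown with M-CSF from the marrow of C57/B6JB mice, per the study's methods, and the treatment was given in medium with 1 mM CaCl2, per the labels. Replicates are numbered in the labels, but what a number stands for (an animal, a preparation or a day) is not given in the sources used here, so that p-values measure only the spread between these cultures. The question was how far each agonist changed these genes, and whether an early change was still present at the later time.

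Death receptors such as Fas and the TNF receptors recruit adaptors and caspase-8 (Casp8), which can start apoptosis. RIPK1 sits at the same receptors, and its ubiquitination by cIAP1 (Birc2) and cIAP2 (Birc3) favours survival and NF-κB signalling, while cFLIP (Cflar), a catalytically inactive relative of caspase-8, pairs with the caspase and limits both apoptosis and necroptosis. When caspase-8 is inactive, RIPK1 and RIPK3 can assemble through their RHIM motifs, RIPK3 phosphorylates MLKL, and MLKL breaches the plasma membrane. ZBP1, a sensor of Z-form nucleic acids with RHIM motifs of its own, can engage RIPK3 without RIPK1.

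Libraries held between 41131209 and 77699206 counted reads. Levels are given as CPM, reads of a gene scaled to a common library size, after TMM scaling, which sets libraries to a common level through the bulk of genes, and the TMM factors ran from 0.745 to 1.24. All 9 genes passed the filter, 10 TPM (the same kind of share corrected for exon length) in at least 1 culture of the comparison, in all 12 comparisons. A gene was called differentially expressed at an adjusted p under 0.05 in edgeR's quasi-likelihood test together with an absolute log2 fold change above 1. All 8 macrophage markers listed (among them Adgre1, Csf1r and Lyz2) reached 10 TPM in every group except VWF at 3.5 h. There Mertk (mean of 8.25 TPM, against 61.5 TPM in controls and 21 TPM with LPS) fell short, and 7 reached it. No listed T cell, B cell, neutrophil, dendritic cell or endothelial gene did so, whereas 2 of 3 fibroblast genes (Col1a1, Col1a2 and Dcn) did, with summed levels of 3.28 to 136 TPM over the cultures that overlapped between all groups. Below 10 TPM, some marker sums moved with an agonist. The sum of 4 neutrophil genes was 0.134 to 2.23 TPM in controls and 3.88 to 7.28 TPM with VWF at 3.5 h, and 0.234 to 3.08 TPM and 6.84 to 11.6 TPM at 16 h, without overlap. Camp, the gene of the cathelicidin peptide, made up most of it (means of 4.65 and 7.84 TPM with VWF against 0.375 and 0.572 TPM), and Ly6g was at 0 with VWF at both times. The sum of 3 dendritic cell genes was 0.901 to 1.44 TPM with VWF at 3.5 h against 0.308 to 0.674 TPM in controls. Zbtb46 made up most of that sum (means of 0.963 against 0.379 TPM). Siglech was at 0.173 against 0.07 TPM and Flt3 at 0.021 against 0.02 TPM. With LPS at 3.5 h, the macrophage sum (10570 to 18180 TPM against 18850 to 30690 TPM) and the endothelial sum (2.86 to 4.06 TPM against 4.08 to 7.18 TPM) lay below all controls. Lyz2 made up most of the macrophage sum (means of 10906 TPM with LPS against 20382 TPM). Adgre1, Itgam, Csf1r, Cd68 and Mertk were lower as well, while Cd14 (2258 against 924 TPM) and Fcgr1 (415 against 119 TPM) were higher. Of the endothelial genes, Vwf (1.4 against 3.98 TPM) and Pecam1 (0.79 against 0.937 TPM) were lower and Cdh5 (1.1 against 0.321 TPM) was higher. The part of these sums in the results below was not tested. In bulk RNA, a change in the share of a cell type and a change of RNA per cell cannot be told apart. The library of replicate 5 of the 16 h controls stood apart: the SD over genes of its log2 deviation from the group mean was 0.82, against 0.15 to 0.6 in the others, and its genes of at least 6085.5 exon bases lay 0.5 log2 units lower than its genes of at most 2386 bases (medians of the deviation). Replicate 4 of LPS at 16 h came next, with an SD of 0.6 and the same gap of -0.5 between long and short genes. For Casp8, Ripk1, Ripk3, Birc2 and Fas, the 16 h differences from control are also given without each of these libraries in turn. At 3.5 h the gap between long and short genes ran from -0.29 (VWF replicate 3) to 0.5 (control replicate 4), with SDs of at most 0.36.

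On GRCm38, Casp8 (chr1:58795374-58847503, plus strand) and Cflar (chr1:58711508-58758884, plus strand) lie next to each other, as do Birc2 (chr9:7818227-7837064, minus strand) and Birc3 (chr9:7848699-7873186, minus strand). Zbp1 lies at chr2:173206612-173218923 (minus), Mlkl at chr8:111311797-111338177 (minus), Ripk1 at chr13:34002363-34037147 (plus), Ripk3 at chr14:55784995-55788865 (minus) and Fas at chr19:34290666-34327772 (plus). The counts cover the exons of each protein-coding gene. For Ripk1, 6.12% of the exon length overlaps the gene model Gm17084 on the same strand and 2.89% overlaps Serpinb6a on the other strand, and how the counting treated such reads is not given in the sources used here. Stretches of 100 bases shared with another gene made up 4.94% of Ripk1 (shared with Gm17084), 3.99% of Cflar, 1.76% of Birc3, 0.717% of Casp8 and 0.33% of Birc2.

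Stretches of the promoters are shown for 5 of the genes called below against control with an agonist. Birc2, called as well, is not shown, and Casp8 belonged to neither of the groups of genes described below. RefSeq windows of 300 bases, 250 before and 50 after a start site (GRCm38.p6), were at hand for 8 of the 9 genes, Zbp1 being the exception, and Ripk1 and Birc2 had 2 windows each. The window of Casp8 (chr1:58802252-58802551) lies inside the gene as annotated above, whose first base is at chr1:58795374, and not at its 5′ end. Capitals mark matches, on either strand, to GAAANNGAAA, the core of the interferon-stimulated response element, or to the shorter AANNGAAA that it contains. Each line is 120 bases, 5′ to 3′ on the strand of the gene.
Cflar (chr1:58711388-58711507, plus): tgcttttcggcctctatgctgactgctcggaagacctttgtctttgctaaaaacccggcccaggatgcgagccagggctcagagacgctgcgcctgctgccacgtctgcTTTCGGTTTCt
Fas (chr19:34290509-34290628, plus): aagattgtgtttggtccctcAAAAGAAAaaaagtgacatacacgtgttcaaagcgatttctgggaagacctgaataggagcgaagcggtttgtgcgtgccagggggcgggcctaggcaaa
Birc3 (chr9:7873281-7873400, minus): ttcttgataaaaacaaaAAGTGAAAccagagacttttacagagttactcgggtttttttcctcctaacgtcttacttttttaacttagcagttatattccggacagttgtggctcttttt
Casp8 (chr1:58802322-58802441, plus): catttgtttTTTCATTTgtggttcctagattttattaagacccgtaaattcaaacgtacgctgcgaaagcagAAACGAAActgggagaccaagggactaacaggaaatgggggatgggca
Mlkl (chr8:111338206-111338325, minus): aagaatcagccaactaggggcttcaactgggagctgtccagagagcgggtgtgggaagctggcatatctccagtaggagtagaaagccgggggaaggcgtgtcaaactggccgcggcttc

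The 10-base core occurred in 3.45% of 32544 RefSeq windows of this length, and in the windows of Cflar and of 1 of the starts of Ripk1. Its shorter form was present in 23.9% of all windows and in 6 of the 10 windows of these genes, those of Cflar, Fas, Birc3, Casp8, 1 start of Birc2 and 1 start of Ripk1. A palindromic TTCNNNGAA, the letters of the gamma-activated site bound by STAT proteins, was present in 8.33% of windows and in those of Fas and 1 start of Ripk1. The κB consensus bound by NF-κB was present in 8.49% of all windows and in 0 of the 10. The windows of Mlkl and Ripk3 held none of these letters. These are matches of letters in short windows, and binding was not measured.

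At 3.5 h, VWF raised 6 of the 9 genes and lowered 0. Among the 8200 genes tested in that comparison 14.7% were differentially expressed, 9.1% upward and 5.59% downward. The 6 were Zbp1, Mlkl, Cflar, Fas, Birc2 and Birc3, with log2 fold changes of 1.21 to 2.68, and the median over the 9 genes was 1.69 against -0.01 over all genes tested. At 16 h, 3 of the 9 (Zbp1, Mlkl and Birc3) were higher with VWF and 0 lower, against 8.71% of all genes called, 4.55% upward and 4.15% downward, and 1 of the 9 (Ripk3) was lower at an unadjusted p under 0.05. DESeq2 gave 6 and 3 of the 9 genes higher and 0 lower. LPS at 3.5 h raised 6 of 9, which were Zbp1, Mlkl, Cflar, Fas, Birc2 and Birc3 as well (24.5% of all genes called, 12.8% upward), and at 16 h it raised Zbp1, Mlkl, Cflar, Fas, Birc3 and Casp8 (27.6% called, 15.3% upward). The split of all calls depended on the scaling: with LPS, 52.1% of the genes called at 3.5 h and 55.2% at 16 h were higher, against 24.1% and 25.2% when libraries were scaled by size alone, which lowered the median of all genes by 0.55 and 0.59 on the log2 scale. Under that scaling 6 of the 9 genes were higher with LPS at 3.5 h and 5 at 16 h, and 5 and 3 with VWF. Below, whether cultures of compared groups overlap is stated for each gene. Over all genes tested, the groups did not overlap for 34.7% (3.5 h) and 25.9% (16 h) with VWF against control, 54.1% and 47.1% with LPS against control, and 39.1% and 50.7% with VWF against LPS. Between 16 h and 3.5 h they did not overlap for 35.2% of genes in control, 53.6% with VWF and 54.4% with LPS. Shares for groups that differ in both treatment and time are not given. Both agonists were set against the same control cultures at each time, so that their fold changes share those controls.

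**Figure D1:**
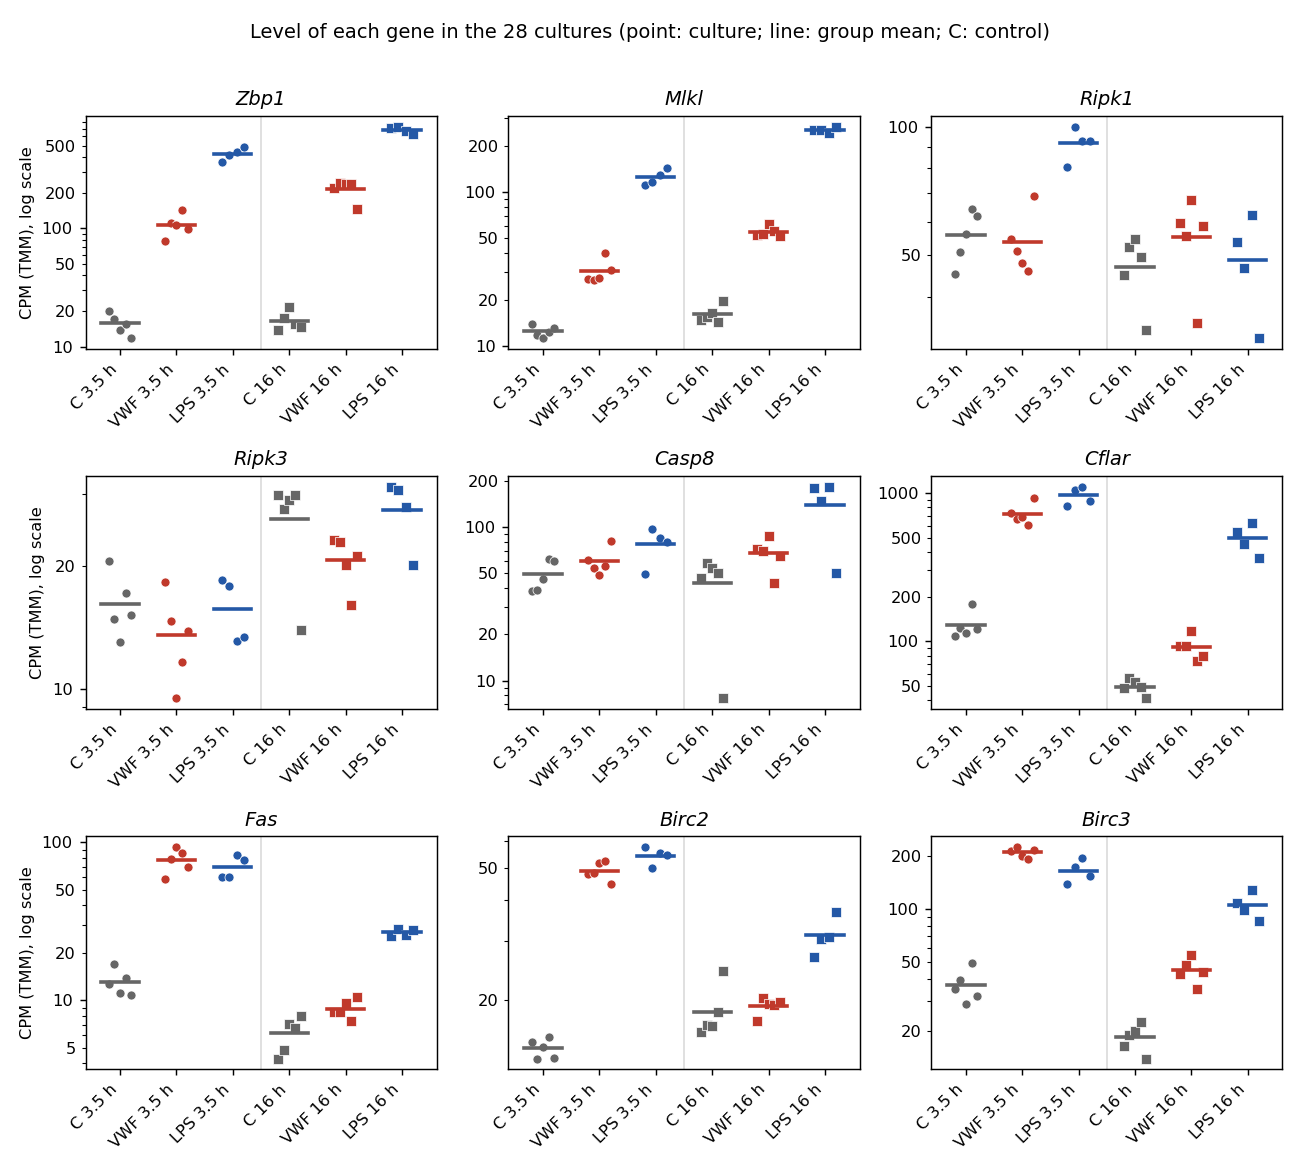
Level of the 9 genes in each of the 28 cultures, as CPM after TMM scaling on a log axis, by group (grey, control; red, VWF; blue, LPS; circles, 3.5 h; squares, 16 h), with a line at the group mean. Zbp1 and Mlkl sit highest with LPS at 16 h and stay above the controls with VWF at both times, Cflar, Fas, Birc2 and Birc3 sit high with both agonists at 3.5 h, and the control at 7.63 CPM of Casp8 is replicate 5 at 16 h.

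**Figure D2:**
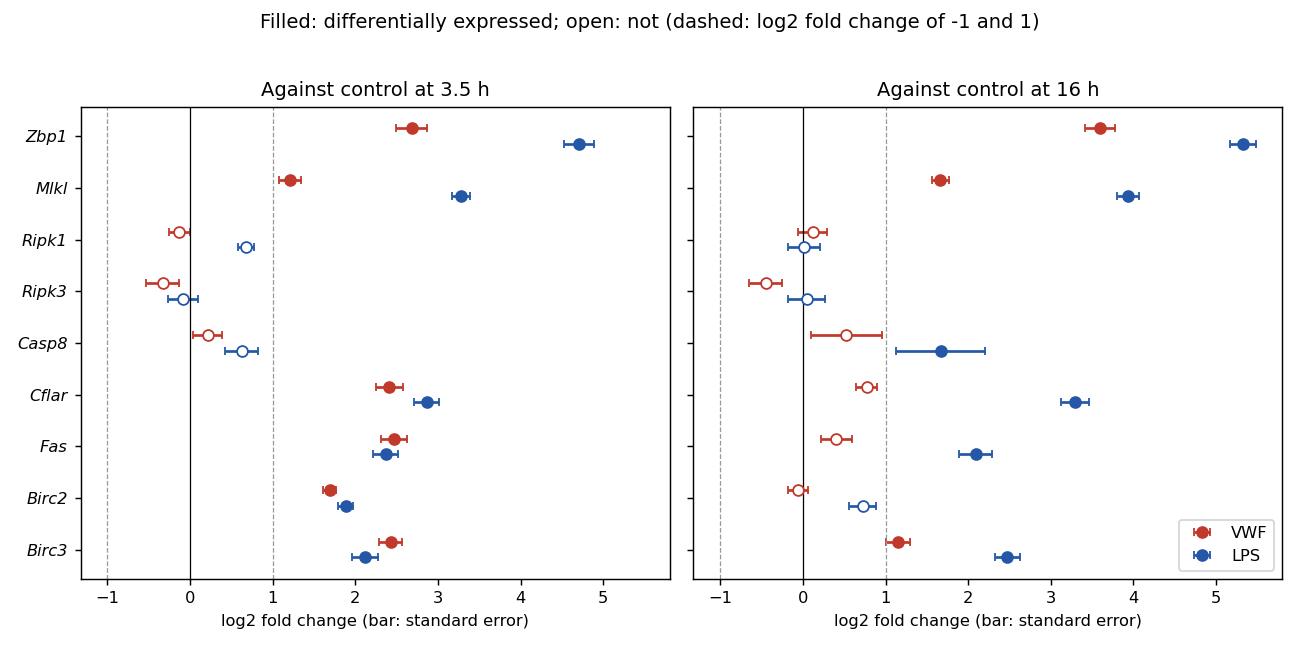
Log2 fold change against control at 3.5 h (left) and 16 h (right) for VWF (red) and LPS (blue), with its standard error; filled points are differentially expressed and dashed lines mark -1 and 1. At 3.5 h the VWF and LPS points of Cflar, Fas, Birc2 and Birc3 lie close together, and at 16 h the VWF points of these genes have moved towards 0 while those of Zbp1 and Mlkl have not.

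Zbp1, the nucleic acid sensor, had the largest change of the 9 genes in each of the 4 comparisons of an agonist with control. In the 3.5 h controls its level was 20.2, 17.2, 13.9, 15.6 and 11.7 CPM. With VWF for 3.5 h the cultures held 77.8, 111.8, 106.2, 144.5 and 99.2 CPM, and with LPS 364, 416.3, 439.6 and 489.8 CPM. All VWF cultures thus lay above all controls and below all LPS cultures. The log2 fold change against control was 2.68 (SE 0.19, adjusted p = 4.41e-07) for VWF and 4.71 (SE 0.18, adjusted p = 2.38e-09) for LPS. The controls of 16 h held 13.7, 17.5, 21.7, 15.5 and 14.7 CPM. The VWF cultures held 218, 240.7, 239.1, 238.2 and 147.4 CPM, of which replicate 5 was the lowest by a wide gap, and the LPS cultures 705.3, 726, 668.9 and 625 CPM. The 3 groups again did not overlap, with a log2 fold change of 3.59 (SE 0.18, adjusted p = 8.16e-07) for VWF and 5.32 (SE 0.16, adjusted p = 1.67e-08) for LPS. From the lowest mean to the highest, the order was control at 3.5 h, control at 16 h, VWF at 3.5 h, VWF at 16 h, LPS at 3.5 h and LPS at 16 h, and only the control groups overlapped as neighbours.

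Mlkl, the executioner of necroptosis, showed the same order of groups at lower levels. Controls held 13.8, 11.7, 11.2, 12.3 and 13.1 CPM at 3.5 h and 14.7, 15.4, 16.2, 14.2 and 19.6 CPM at 16 h. With VWF the levels were 27.1, 26.7, 27.6, 40 and 31.3 CPM at 3.5 h, and 52.3, 53.5, 61.6, 56.1 and 51.7 CPM at 16 h. With LPS they were 111.2, 116.7, 128.4 and 142 CPM, then 251.7, 253.6, 241.6 and 265.2 CPM. No neighbouring groups in this order overlapped, the control groups included. VWF raised Mlkl by a log2 fold change of 1.21 at 3.5 h (SE 0.13, adjusted p = 1.23e-05) and of 1.66 at 16 h (SE 0.10, adjusted p = 1.46e-06), and LPS by 3.28 (SE 0.11, adjusted p = 7.6e-10) and 3.94 (SE 0.13, adjusted p = 3.04e-08). Scaling by library size alone put the early VWF value at 0.99 (adjusted p = 6.65e-05), just short of the fold threshold.

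Cflar encodes cFLIP, the partner and brake of caspase-8. At 3.5 h its controls held 107.9, 123, 114, 177.7 and 120.2 CPM. The VWF cultures held 727.5, 667.2, 688.9, 611.1 and 923.8 CPM, and the LPS cultures 815.2, 1050, 1099 and 883.4 CPM. VWF and LPS cultures overlapped, and all lay above the controls. The log2 fold change was 2.41 with VWF (SE 0.16, adjusted p = 2.77e-07) and 2.86 with LPS (SE 0.15, adjusted p = 3.07e-08). By 16 h the controls were down to 48.2, 56.3, 52.8, 49 and 41.1 CPM and the VWF cultures to 93.3, 93.2, 116.8, 74 and 80.1 CPM. LPS cultures still held 547.7, 453.2, 625.8 and 362.4 CPM, above every culture of the other 16 h groups. The VWF cultures remained above the controls without overlap, at a log2 fold change of 0.77 (SE 0.13, adjusted p = 0.000915) that was short of the fold threshold, whereas LPS stood at 3.29 (SE 0.17, adjusted p = 2.35e-07).

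Fas, the death receptor of Fas ligand, moved in the same way at a lower level. Its 3.5 h controls held 12.6, 17, 11.1, 13.9 and 10.9 CPM, against 58.6, 78.5, 93.7, 86.2 and 69.5 CPM with VWF and 60.1, 60.5, 82.8 and 76.9 CPM with LPS. The agonist groups overlapped each other and not the controls, at log2 fold changes of 2.47 (SE 0.16, adjusted p = 1.61e-07) and 2.37 (SE 0.15, adjusted p = 1.53e-07). By 16 h the controls held 4.28, 4.88, 7.05, 6.68 and 8 CPM and the VWF cultures 8.48, 8.43, 9.58, 7.45 and 10.4 CPM, which overlapped. The VWF difference was 0.41 (SE 0.18, 95% interval 0.05 to 0.77, adjusted p = 0.138), and 0.53 (adjusted p = 0.0241) without the control library that stood apart. With all cultures the approximate interval excludes 0, but the unadjusted p of the test was not under 0.05. LPS cultures held 25.7, 28.3, 26 and 28.1 CPM, above every culture of the other 16 h groups, at a log2 fold change of 2.09 (SE 0.20, adjusted p = 1.55e-05), or 2.22 without that control and 2.06 without LPS replicate 4.

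Birc2 and Birc3 encode the ubiquitin ligases cIAP1 and cIAP2. Birc2 held 14.9, 13.3, 14.4, 15.5 and 13.3 CPM in the 3.5 h controls, 47.7, 48.2, 51.6, 52.2 and 44.6 CPM with VWF and 57.7, 49.8, 55.4 and 54.6 CPM with LPS. The agonist groups overlapped each other and lay above all controls. Its log2 fold change was 1.69 with VWF (SE 0.08, adjusted p = 1.37e-08) and 1.88 with LPS (SE 0.09, adjusted p = 1.02e-08). Controls at 16 h held 16, 16.8, 16.6, 18.3 and 24.3 CPM, the last of them from the library that stood apart, and the VWF cultures 17.3, 20.2, 19.4, 19.2 and 19.7 CPM, which overlapped. The VWF difference was then -0.06 (SE 0.12, 95% interval -0.30 to 0.19, adjusted p = 0.796), and 0.07 (adjusted p = 0.414) without that library. LPS cultures held 26.9, 30.5, 30.8 and 36.7 CPM at 16 h, above all controls and all VWF cultures. Their log2 fold change of 0.72 (SE 0.16, adjusted p = 0.00432), or 0.86 (adjusted p = 0.00016) without the control library and 0.62 (adjusted p = 0.0118) without LPS replicate 4, passed the adjusted p and not the fold threshold.

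For Birc3 the 3.5 h controls held 34.8, 39.4, 28.8, 49 and 32.1 CPM. With VWF it held 213, 225.9, 201, 192.7 and 217.7 CPM, and with LPS 139, 172.5, 194.2 and 154.9 CPM, both above all controls and overlapping each other. The log2 fold change was 2.43 with VWF (SE 0.14, adjusted p = 9.65e-08) and 2.12 with LPS (SE 0.16, adjusted p = 4.27e-07). At 16 h the controls held 16.6, 19.1, 20.2, 22.5 and 14 CPM, the VWF cultures 42.3, 47.6, 54.3, 34.8 and 43.7 CPM, and the LPS cultures 108.6, 98.9, 128.4 and 85 CPM, with no overlap between any of these groups. Of the 4 genes that were high at 3.5 h and lower at 16 h with VWF, Birc3 alone was still called against control at 16 h, at 1.15 (SE 0.14, adjusted p = 0.000155). Its log2 fold change with LPS was 2.47 (SE 0.16, adjusted p = 9.96e-07). Per kilobase of exon, the level of Birc3 was 2.36 ± 0.44 (SD, n = 5) times that of Birc2 in the 3.5 h controls and 3.95 ± 0.47 (SD, n = 5) times with VWF, with no overlap, and 2.79 ± 0.48 (SD, n = 4) times with LPS. At 16 h this ratio was 0.95 ± 0.25 (SD, n = 5) in controls, 2.13 ± 0.33 (SD, n = 5) with VWF and 3.15 ± 0.78 (SD, n = 4) with LPS. It was 1.06 ± 0.08 (SD, n = 4) without control replicate 5, which had 0.526. Without LPS replicate 4, which had 2.12, it was 3.49 ± 0.46 (SD, n = 3). These values were computed after the data were seen.

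Ripk1 and Ripk3, the RHIM kinases that pass the signal to MLKL, were not differentially expressed in any of the 12 comparisons with all cultures included. Ripk1 came closest in the test of whether the VWF to LPS difference changed with time, at 0.91 (SE 0.26, adjusted p = 0.00753), and it passed the fold threshold there without VWF replicate 5 at 3.5 h (1.02), LPS replicate 3 at 16 h (1.03) or VWF replicate 4 at 16 h (1.03), or with library size scaling alone (1.07). Ripk1 ranged from 45.2 to 64.3 CPM in the 3.5 h controls and from 46 to 68.9 CPM with VWF, which overlapped, a difference of -0.13 (SE 0.13, 95% interval -0.38 to 0.13, adjusted p = 0.487). The LPS cultures of that time held 80.7, 100.2, 92.7 and 92.6 CPM, above every control and every VWF culture, at a log2 fold change of 0.68 (SE 0.10, adjusted p = 0.000135) that fell short of the fold threshold and was 0.14 (adjusted p = 0.288) when libraries were scaled by size alone. VWF against LPS at 3.5 h was -0.78 for Ripk1 (SE 0.13, adjusted p = 0.000637). At 16 h the groups overlapped, with a Ripk1 difference of 0.12 (SE 0.18, adjusted p = 0.697) for VWF and 0.02 (SE 0.19, adjusted p = 0.954) for LPS. Without control replicate 5 the Ripk1 values were 0.026 (adjusted p = 0.91) and -0.078 (adjusted p = 0.723), and without LPS replicate 4 the LPS value was 0.17 (adjusted p = 0.397). The lowest culture of each 16 h group was the control at 33.5 CPM (replicate 5), the VWF culture at 34.8 CPM (replicate 4) and the LPS culture at 32 CPM (replicate 4). These 3 libraries had the lowest values for long against short genes in their groups (-0.5, -0.42 and -0.5), and the part of that in the Ripk1 level was not tested.

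Ripk3 ranged from 13 to 20.6 CPM in the 3.5 h controls, from 9.45 to 18.3 CPM with VWF and from 13.1 to 18.5 CPM with LPS, all overlapping. The differences were -0.33 (SE 0.20, adjusted p = 0.214) and -0.08 (SE 0.18, adjusted p = 0.706). Its 16 h controls held 29.9, 27.6, 29.1, 30 and 14 CPM, the VWF cultures 23.2, 22.9, 20.2, 16.1 and 21.2 CPM, and the LPS cultures 31.3, 30.8, 27.9 and 20.1 CPM. All VWF cultures thus lay below the first 4 controls and above the fifth, and the LPS cultures overlapped both other groups. The VWF difference was -0.45 (SE 0.20, adjusted p = 0.131) with all 5 controls and -0.60 (SE 0.10, adjusted p = 0.000936) without the library that stood apart. With LPS it was 0.05 (SE 0.22, adjusted p = 0.883), -0.11 (adjusted p = 0.508) without that library, and 0.16 (adjusted p = 0.566) without LPS replicate 4. Ripk3 was higher at 16 h than at 3.5 h in all 3 treatments, by 0.73 in control (adjusted p = 0.0174), 0.65 with VWF (adjusted p = 0.00721) and 0.86 with LPS (adjusted p = 0.00482), each short of the fold threshold. The control value was 0.88 (adjusted p = 0.000395) without control replicate 5 at 16 h and the LPS value 0.99 (adjusted p = 0.000537) without LPS replicate 4 at 16 h.

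Casp8, the initiator caspase, was called in 2 comparisons, and both calls were lost on leaving out certain libraries. Its 3.5 h levels were 38.5, 39.1, 46.2, 62.5 and 60.1 CPM in control, 60.9, 53.9, 48.6, 56.3 and 80.9 CPM with VWF, and 49.5, 98.1, 85.1 and 79.9 CPM with LPS. These groups overlapped, at differences of 0.21 (SE 0.18, adjusted p = 0.381) for VWF and 0.63 (SE 0.20, adjusted p = 0.0164) for LPS. At 16 h the controls held 46.5, 58.3, 54.7, 50.4 and 7.63 CPM, the VWF cultures 72.6, 70.5, 87.4, 43.4 and 65.2 CPM, and the LPS cultures 181, 148, 184 and 50.5 CPM. The fifth control and the fourth LPS culture, the libraries with the largest deviations from their groups, were thus the lowest of theirs, and the groups overlapped. LPS raised Casp8 at 16 h by a log2 fold change of 1.67 (SE 0.54, 95% interval 0.60 to 2.73, adjusted p = 0.0269). The value was 1.39 (adjusted p = 0.00697) without the fifth control and 1.94 (adjusted p = 0.0111) without the fourth LPS culture. It lost the call without control replicate 1 (adjusted p = 0.0518), without LPS replicate 1 (adjusted p = 0.0702), 2 (adjusted p = 0.0555) or 3 (adjusted p = 0.0664), and under scaling by library size alone (1.08, adjusted p = 0.129). With VWF the 16 h difference was 0.53 (SE 0.42, 95% interval -0.31 to 1.36, adjusted p = 0.431), or 0.26 (adjusted p = 0.22) without the fifth control.

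Casp8 and Cflar act as a pair. Per kilobase of exon, the level of Cflar was 0.61 ± 0.10 (SD, n = 5) times that of Casp8 in the 3.5 h controls. With VWF the ratio was 2.78 ± 0.29 (SD, n = 5) and with LPS 2.92 ± 0.60 (SD, n = 4), both groups lying wholly above the controls. At 16 h the controls were at 0.43 ± 0.45 (SD, n = 5), a mean that rests on the library that stood apart, where the ratio was 1.23. Without it the other 4 controls were at 0.22 ± 0.01 (SD, n = 4). VWF cultures were at 0.31 ± 0.04 (SD, n = 5), so that their mean lay below that of all 5 controls and above that of the 4, and each of them (0.281 at the lowest) lay above each of the 4 (0.237 at the highest). With LPS the ratio was 0.95 ± 0.46 (SD, n = 4), and 0.72 ± 0.05 (SD, n = 3) without replicate 4, which had 1.64. The ratios without these libraries were computed after the data were seen. These ratios are descriptions, and the exon length of Cflar (12669 bases over all annotated transcripts) may be longer than that of the transcripts present.

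The time course separated the genes by treatment. In control cells, Cflar was lower at 16 h than at 3.5 h by a log2 fold change of -1.33 (SE 0.14, adjusted p = 6.49e-05) and Fas by -1.03 (SE 0.21, adjusted p = 0.0031), which were the 2 of 9 genes called there, against 9.08% of all genes (5.09% downward). Fas lost the call without control replicate 2 at 3.5 h (-0.92), or without control replicate 1 (-0.92) or 2 (-0.95) at 16 h, which left 1 of the 9 genes. Birc3 was close to the threshold, at -0.95 (SE 0.17, adjusted p = 0.00132). With VWF, 4 of 9 genes were lower and 1 higher at 16 h, against 21.4% of all genes (12.2% downward, 9.15% upward). Fas differed by -3.07 (SE 0.13, adjusted p = 7.83e-09), Cflar by -2.93 (SE 0.15, adjusted p = 2.69e-08), Birc3 by -2.19 (SE 0.11, adjusted p = 2.59e-08) and Birc2 by -1.30 (SE 0.07, adjusted p = 3.74e-08). Zbp1 went the other way, at 1.06 (SE 0.17, adjusted p = 0.000205), and was 0.97 without VWF replicate 1 at 3.5 h. Mlkl was at 0.90 (SE 0.12, adjusted p = 3.55e-05). With LPS, Mlkl was higher at 16 h by 1.09 (SE 0.09, adjusted p = 1.27e-05) and Fas lower by -1.30 (SE 0.11, adjusted p = 1.26e-05), which were the 2 genes called, against 28.1% of all genes (14.6% upward, 13.5% downward). Without LPS replicate 4 at 16 h, Casp8 was also called, at 1.20 (adjusted p = 0.000397).

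Since the controls moved too, the change of each agonist's effect with time was tested as an interaction. The VWF effect was smaller at 16 h than at 3.5 h for 4 of the 9 genes and larger for 0, against 13.5% of all genes called (7.77% downward, 5.69% upward). The difference between the 16 h and the 3.5 h log2 fold changes was -2.03 for Fas (SE 0.24, adjusted p = 1.62e-06), -1.72 for Birc2 (SE 0.15, adjusted p = 3.24e-08), -1.61 for Cflar (SE 0.20, adjusted p = 3.89e-06) and -1.24 for Birc3 (SE 0.20, adjusted p = 6.05e-05). Zbp1 stood at 0.95 (SE 0.25, adjusted p = 0.00601) and Mlkl at 0.48 (SE 0.17, adjusted p = 0.0331), both upward and below the fold threshold. For LPS, 1 of 9 genes was called (26.3% of all genes, 12.8% downward), namely Birc2 at -1.15 (SE 0.19, adjusted p = 9.6e-05). Cflar was at 0.45 (SE 0.23, adjusted p = 0.114), or 0.57 (adjusted p = 0.0374) without LPS replicate 4 at 16 h, Birc3 at 0.37 (SE 0.23, adjusted p = 0.191) and Fas at -0.27 (SE 0.25, adjusted p = 0.408). Whether VWF and LPS differed in this respect was tested on the VWF and LPS cultures alone, a comparison that was not planned and was chosen with the data in view. The VWF to LPS difference moved downward from 3.5 h to 16 h for 3 of 9 genes (25% of all genes called, 14.3% downward). The shift was -2.07 for Cflar (SE 0.23, adjusted p = 1.16e-06), -1.78 for Fas (SE 0.17, adjusted p = 1.31e-07) and -1.63 for Birc3 (SE 0.17, adjusted p = 6.26e-07). Birc2 was at -0.58 (SE 0.12, adjusted p = 0.000787), and Zbp1 (0.30, adjusted p = 0.25) and Mlkl (-0.21, adjusted p = 0.259) did not pass the test.

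**Figure D3:**
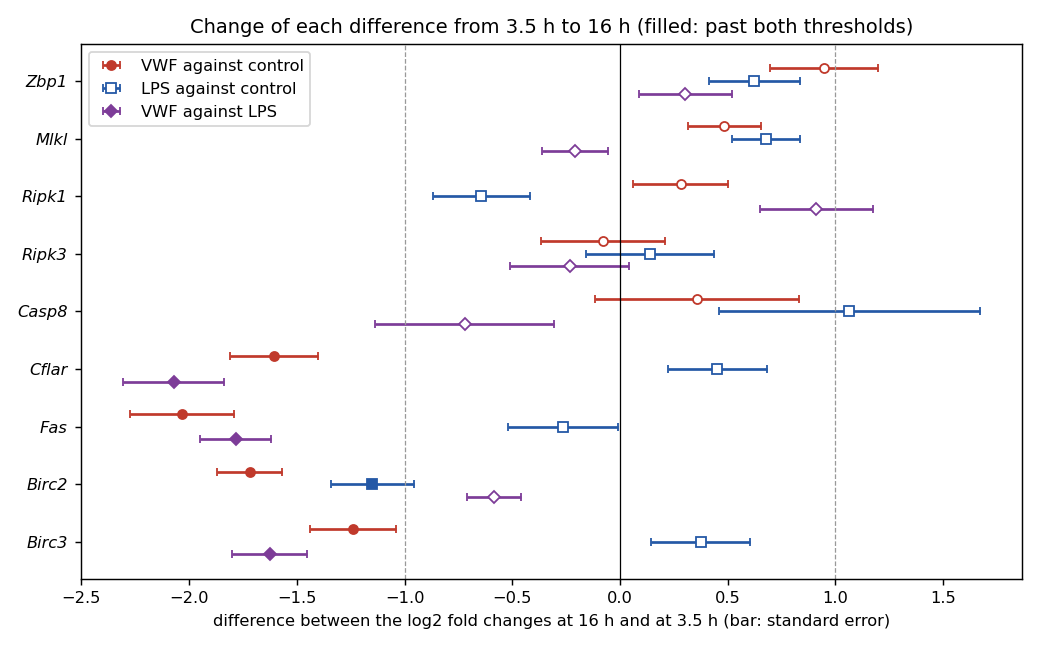
Change from 3.5 h to 16 h of the log2 difference between VWF and control (red circles), LPS and control (blue squares) and VWF and LPS (purple diamonds), with its standard error; filled symbols are past both thresholds and dashed lines mark -1 and 1. Cflar, Fas and Birc3 are filled on the left for VWF against control and VWF against LPS and open for LPS against control, and Birc2 is filled for both agonists against control.

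A direct comparison of the agonists gave 2 of 9 genes lower with VWF than with LPS at 3.5 h, against 11.4% of all genes called (6.71% downward). These were Mlkl at -2.04 (SE 0.13, adjusted p = 8.98e-07) and Zbp1 at -2.00 (SE 0.15, adjusted p = 2.37e-06). Fas (0.13, SE 0.13, 95% interval -0.12 to 0.38, adjusted p = 0.423) and Birc2 (-0.17, SE 0.08, 95% interval -0.32 to -0.01, adjusted p = 0.094) did not pass the test at that time. The approximate interval of Birc2 excludes 0, but its unadjusted p was not under 0.05. Birc3 was at 0.34 (SE 0.10, adjusted p = 0.0178) and Cflar at -0.42 (SE 0.14, adjusted p = 0.0278), past the adjusted p in opposite directions and within the fold threshold. Ripk1, at -0.78 as given above, also passed the adjusted p, and its VWF cultures lay below all LPS cultures. At 16 h, 6 of 9 genes were lower with VWF than with LPS and 0 higher (25.5% of all genes called, 14.5% downward). Cflar differed by -2.47 (SE 0.18, adjusted p = 1.83e-06), Mlkl by -2.23 (SE 0.08, adjusted p = 3.15e-08), Zbp1 by -1.68 (SE 0.15, adjusted p = 7.1e-06), Fas by -1.64 (SE 0.11, adjusted p = 9.76e-07) and Birc3 by -1.27 (SE 0.14, adjusted p = 3.25e-05). Casp8 was the sixth at -1.09 (SE 0.34, adjusted p = 0.0193), and it was -0.96 with the replicate numbers as a block (adjusted p = 0.00108), which left 5 genes called. Its call was also lost without LPS replicate 1 (adjusted p = 0.0586) or 3 (adjusted p = 0.0522), without VWF replicate 4 (-0.96), and under scaling by library size alone (-0.65, adjusted p = 0.144), where Birc3 stood at -0.82 (adjusted p = 0.0025) as well. Without LPS replicate 4 Casp8 was at -1.37 (adjusted p = 0.000145). Birc2 at -0.73 (SE 0.10, adjusted p = 0.000109) and Ripk3 at -0.44 (SE 0.16, adjusted p = 0.0344) passed the adjusted p and not the fold threshold.

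Ligands and receptors upstream of these genes were read from lists of the pathway. Over all genes tested, the shares called were 9.1% higher and 5.59% lower with VWF and 12.8% and 11.8% with LPS at 3.5 h, and 4.55% and 4.15% with VWF and 15.3% and 12.4% with LPS at 16 h. Of 5 death ligands, 3 were tested at 3.5 h, and Tnf and Tnfsf10 (TRAIL) were raised by both agonists. Tnf was at 100.8 to 156.8 CPM in controls, at 2279 to 2894 CPM with VWF (log2 fold change 4.26, SE 0.14, adjusted p = 2.14e-09) and at 2739 to 2991 CPM with LPS (4.45, SE 0.14, adjusted p = 6.45e-10). Tnfsf10, at 0.12 to 0.38 CPM in controls, reached 13.1 to 28.9 CPM with VWF (6.22, SE 0.37, adjusted p = 1.01e-07) and 83.8 to 130.6 CPM with LPS (8.74, SE 0.27, adjusted p = 5.65e-10). At 16 h, Tnf with VWF was at 49.6 to 53.3 CPM against 19.3 to 30.3 CPM in controls, 0.88 on the log2 scale (SE 0.12, adjusted p = 0.00027), and with LPS at 255.8 to 390.2 CPM, 3.60 (SE 0.19, adjusted p = 3.38e-07). Tnfsf10 at 16 h was at 0.242 to 0.873 CPM in controls, at 1.92 to 3.38 CPM with VWF and at 50.3 to 84.6 CPM with LPS, with no overlap. It did not pass the filter for VWF at 16 h and stood at 2.58 (SE 0.33, adjusted p = 9.75e-05) with no filter, and LPS stood at 7.35 (SE 0.38, adjusted p = 3.06e-07). Fasl, the ligand of Fas, had a mean of at most 0.0141 CPM in any group.

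Of 11 receptor and adaptor genes, 9 were tested at 3.5 h. VWF raised 4 and lowered 1, the TWEAK receptor gene Tnfrsf12a at -1.01 (SE 0.17, adjusted p = 0.000502), named here after its value was seen. The largest increases were in the adaptors Traf1 at 5.31 (SE 0.21, adjusted p = 6.63e-09) and Daxx at 3.07 (SE 0.13, adjusted p = 9.02e-09) and in TNF receptor 2, Tnfrsf1b, at 2.49 (SE 0.10, adjusted p = 6.63e-09). LPS raised 4 and lowered 0, with Traf1 at 5.23, Daxx at 4.41 and Traf2 at 1.98. At 16 h Daxx was the 1 gene of 8 that VWF raised, at 1.03 (adjusted p = 0.00189), against 4.55% of all genes raised, and it was below the fold threshold in 3 of the 10 fits that left out 1 culture and under library size scaling alone (0.95, adjusted p = 0.0107). Traf1 did not pass the filter there and was not among the 8. It was at 18 to 23.8 CPM with VWF and at 4.53 to 7.11 CPM in controls, with no overlap, and at 1.85 (SE 0.15, adjusted p = 1.08e-06) with no filter. LPS raised 5 of 9 at 16 h, led by Traf1 at 5.57, Daxx at 3.47 and Tnfrsf1b at 2.70. The median over the tested genes was 0.78 and 0.86 for VWF and LPS at 3.5 h, and 0.08 and 1.03 at 16 h, where the medians over all genes lay between -0.03 and -0.01.

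Genes that edit the ubiquitin chains or supply the kinases of the TNF receptor complex numbered 21, of which 20 were tested at 3.5 h and 7 were raised by VWF and 0 lowered. They were led by Tnip1 at 3.13 (SE 0.14, adjusted p = 1.13e-08), Tnfaip3 (A20, a ubiquitin-editing brake of NF-κB) at 2.89 (SE 0.17, adjusted p = 1.11e-07) and Ripk2 at 2.59 (SE 0.10, adjusted p = 6.03e-09). LPS raised 7 and lowered 1 (Tab1, -1.42, SE 0.11, adjusted p = 7.14e-07, which lies outside the rule for named genes and was picked after its value was seen), and Tnfaip3 was at 3.70, Ripk2 at 3.67 and Rnf31, a subunit of the linear ubiquitin ligase, at 2.80. At 16 h VWF raised 2 of 19, against 4.55% of all genes, Tnip1 at 1.03 and Ikbke at 1.02, which fell below the fold threshold in 2 and 3 of the 10 fits that left out 1 culture. Under library size scaling alone both missed the fold threshold, at 0.97 (Tnip1, adjusted p = 0.000879) and 0.98 (Ikbke, adjusted p = 0.000453). LPS still raised 7 of 20, with Tnfaip3 at 3.41, Rnf31 at 2.44 and Ikbke at 2.32.

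Among 10 genes of the routes to the RHIM kinases and of necroptosis control, all tested, VWF at 3.5 h raised 3 and lowered 1. The RNA-activated kinase Eif2ak2 was at 2.06 (SE 0.14, adjusted p = 3.18e-07), Tlr3 at 2.03 (SE 0.16, adjusted p = 1.12e-06) and Adar, the RNA editor whose product restrains ZBP1, at 1.65 (SE 0.15, adjusted p = 4.41e-06). The lowered gene was Tlr4, the LPS receptor, at -1.08 (SE 0.17, adjusted p = 0.000304), which was picked after its value was seen. LPS raised 5 and lowered 0, led by Tlr3 at 4.29, Eif2ak2 at 3.49 and Adar at 2.68. Eif2ak2 at 1.37 (SE 0.13, adjusted p = 1.87e-05) and Adar at 1.30 (SE 0.13, adjusted p = 4.25e-05) were the 2 genes that VWF still raised at 16 h, and LPS raised 5, with Tlr3 at 3.04, Adar at 2.67 and Eif2ak2 at 2.67. Direct comparison at 16 h placed 5 of these 10 genes lower with VWF than with LPS, against 14.5% of all genes (25.5% called).

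Of 10 apoptosis effectors below caspase-8, 8 were tested. VWF at 3.5 h raised 1 and lowered 1, Casp9, the initiator of the mitochondrial route, at -1.18 (SE 0.09, adjusted p = 5.06e-07), against 9.1% and 5.59% of all genes. At 16 h it raised 0 and lowered 0 by edgeR and by DESeq2, with 3 at an unadjusted p under 0.05. LPS at 3.5 h raised 4 and lowered 1, with Casp9 at -2.12 and Apaf1, the scaffold that activates caspase-9, at 1.50, or 0.96 (adjusted p = 8.98e-06) under library size scaling alone, short of the fold threshold. At 16 h LPS raised 5 of 8 and lowered 0, with the pore-forming Gsdmd at 1.93 (SE 0.16, adjusted p = 6.57e-06) and Cycs, cytochrome c, at 1.93 (SE 0.12, adjusted p = 1.08e-06).

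**Figure D4:**
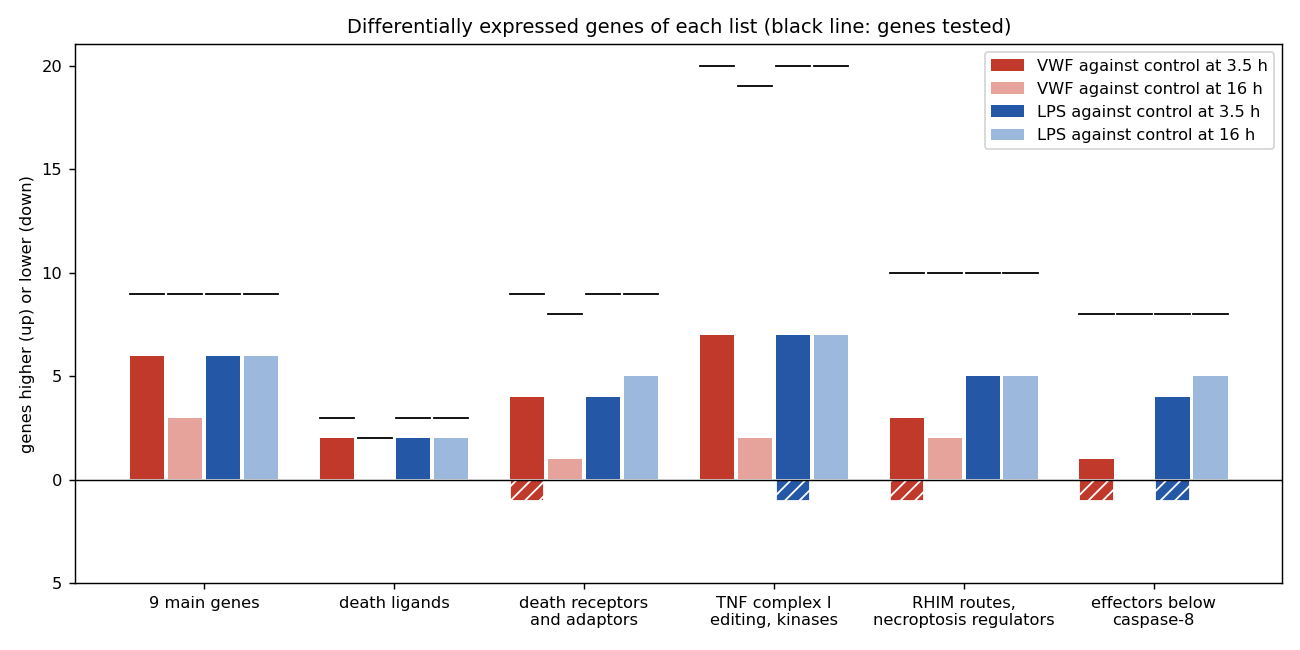
Number of differentially expressed genes in the set of 9 and in each of the 5 pathway lists for the 4 comparisons with control; bars up are genes higher and hatched bars down genes lower with the agonist, and the black line is the number tested. For VWF the bars at 16 h are shorter than at 3.5 h in all 6 sets, and no LPS bar that points up is shorter at 16 h.

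Across the 28 cultures, log2 levels of the 9 genes fell into the same groups. Pearson's r was 0.96 between Zbp1 and Mlkl, between 0.87 and 0.97 among Cflar, Fas, Birc2 and Birc3, and between 0.44 and 0.68 across these sets. Ripk3 had r of -0.55 with Fas and at most 0.38 with any of the other 8. Among the 8867 genes compared, those most like Zbp1 were Oas1g (r = 0.995), Dhx58 (0.995) and Oas1a (0.991), and those most like Mlkl were Mov10 (0.988), Ddx60 (0.988) and H2-T22 (0.982). Cflar was nearest to Nfkbie (0.988), Fas to Tnf (0.985), Birc3 to Pde4b (0.988) and Birc2 to Bcl2a1d (0.977). For Casp8 the nearest was Pmm2 (0.948), for Ripk1 Epc2 (0.906) and for Ripk3 Rbmx (0.862). All points share the libraries, their scaling and the 6 treatments, so that these correlations describe the groups as much as the genes.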

How the data were processed

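RNA of 28 BMDM cultures was sequenced by the study as paired-end reads and mapped with STAR to GRCm38 (mm10). The deposited table holds the authors' raw counts per Ensembl gene, which were used without change. The sources used here do not give the annotation, strand or treatment of multi-mapped reads behind the table, and symbols, positions and exon lengths were taken from the GENCODE M21 annotation of GRCm38. Counts were tested in R 4.3.3 with edgeR 4.0.16 (TMM, robust quasi-likelihood test, Benjamini-Hochberg over all genes tested), keeping genes at 10 TPM in at least 1 culture of the comparison, the filter of the study's methods. Only the groups compared entered a fit. edgeR recovered known changes of well-counted genes on simulated data with a common dispersion. That simulation held no library that stood apart, so it does not bear on calls that depend on such libraries. DESeq2 1.42.0 (the study's tool), other scalings and filters, a fit of all groups, a replicate block and leaving out each culture were alternatives. Pearson's correlations between same-numbered cultures, over the deviations of all genes from their group means, ranged from -0.69 to 0.81 over the 9 pairs of groups and were above 0.1 in every pair (0.2 to 0.81, 4 pairs) for VWF against LPS at 16 h alone. There the blocked value is given for Casp8, the only gene of the 9 whose call it changed. The SEs and p-values of the other genes in that comparison are without a block. No replicates agreed within sampling noise (chi-square per degree of freedom at least 15.8). The genes and lists were chosen with earlier results of these data known. The text names the 9 genes and, per list, up to 3 called genes with the largest change against control for each agonist and time, of which some are not reported here. Correlations used log2 CPM with a prior count of 2.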

Additional observations from a re-analysis of the deposited data

Results flagged for a closer look

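In 5 of the 54 sets of values (9 genes in 6 groups) the highest or lowest culture lay further from the others than Dixon's 95% limit allows, where chance gives about 1 in 20. Of these, 3 came from replicate 5 of the 16 h controls, the library that stood apart. Casp8 was at 7.63 CPM there against 46.5 to 58.3 CPM in the other controls, Ripk3 at 14 CPM against 27.6 to 30 CPM, and Birc2 at 24.3 CPM against 16 to 18.3 CPM. In that library genes of at least 6085.5 exon bases lay 0.5 log2 units below those of at most 2386 bases. The exon lengths are 2893 bases for Casp8, 2292 for Ripk3 and 4580 for Birc2. The part of gene length in these values was not tested. Zbp1 was at 147.4 CPM in replicate 5 of VWF at 16 h, against 218 to 240.7 CPM in the others, which still lay above every control. Cflar was at 177.7 CPM in replicate 4 of the 3.5 h controls, against 107.9 to 123 CPM. In that library the long genes lay 0.5 log2 units above the short ones, and the exon length of Cflar is 12669 bases. The part of gene length in this value was not tested either.

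Effects that differed between times by an interaction test were those of VWF on Cflar (-1.61), Fas (-2.03), Birc2 (-1.72) and Birc3 (-1.24), and that of LPS on Birc2 (-1.15). The difference between VWF and LPS changed with time for Cflar (-2.07), Fas (-1.78) and Birc3 (-1.63). These 3 tests share cultures with each other.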

How the results depend on the processing

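Across DESeq2, median-of-ratios factors, scaling by library size alone, both other filters, a fit of all 6 groups and the replicate block, the number of the 9 genes called stayed within 1.5 times the value reported in all 12 comparisons. Without the fold threshold the count was 5 for VWF against LPS at 3.5 h (50.2% of all genes), 8 for LPS at 16 h against 3.5 h (60.9%), 6 for control at 16 h against 3.5 h (41.1%), 4 for the change of the LPS effect with time (48.8%) and 5 for that of the VWF to LPS difference (52.7%). Leaving out each culture gave 1 to 3 genes for control at 16 h against 3.5 h, 4 to 6 for VWF at 16 h against 3.5 h, 5 to 6 for LPS against control and for VWF against LPS at 16 h, 2 to 3 for LPS at 16 h against 3.5 h, 4 to 5 for the change of the VWF effect and 3 to 4 for that of the VWF to LPS difference with time; the other 5 counts were constant. Ripk3 in VWF against LPS at 16 h turned from -0.44 (adjusted p = 0.0344) to 0.012 (adjusted p = 0.959) under library size scaling. Zbp1 passed the fold threshold for the change of the VWF effect with time (1.07) under that scaling and in 5 of 20 fits without a culture, and Birc3 did so in the control time course with no filter or without control replicate 3 (-1.04) or 5 (-1.01) at 3.5 h or 4 at 16 h (-1.02). Mlkl did so for VWF at 16 h against 3.5 h without VWF replicate 4 at 3.5 h (1.02). The replicate block changed the call of Casp8 in VWF against LPS at 16 h (-0.96) and of no other of the 9 genes; elsewhere same-numbered cultures were not shown to be paired. Looser filters raised the counts over all genes by 1.57 to 2.35 times, with 1204 genes called by VWF at 3.5 h becoming 2366 with no filter. Library size scaling shifted the share of higher calls by over 10 points in 6 comparisons, from 62% to 48.3% for VWF against control at 3.5 h, from 41.2% to 69.8% and from 43.3% to 72.1% for VWF against LPS at 3.5 h and 16 h, and from 42.8% to 56.8% for the change of that difference with time. Group means moved by more than 1 SD in 24 of 54 sets under that scaling and in 1 with median-of-ratios factors. Fasl was too low to test at this depth.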
